A study of Astyanax mexicanus with 6 samples.

Results

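In the liver of the Mexican tetra, Astyanax mexicanus, 36 of the 27420 genes counted were low in the Pachon cave population. The Tinaja cave population and the river-dwelling Surface population held them at mean levels less than 2-fold apart. The members were chosen by their own read counts. The lowest of the 4 Tinaja and Surface values had to reach 2 CPM and to be at least 3 times the higher of the 2 Pachon values, and the Tinaja and Surface means had to lie within 2-fold of each other. CPM are a gene's reads per 1000000 reads of its library, here with library sizes scaled by TMM, a method that assumes most genes do not change. The study compared liver polyA RNA of 3 populations with 2 libraries each, Pachon cave, Tinaja cave and Surface, with no treatment named in the labels. The labels give no sex, age, feeding state or number of fish behind a library, so the tests rest on a spread between libraries that may be technical.

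Surface fish live in rivers and have eyes, whereas the fish of both caves are blind and live with little and irregular food. Cave populations of this species are known for storing fat and for withstanding starvation, and the liver is the organ that makes plasma proteins, handles lipids and sugars and clears foreign compounds. Pachon and Tinaja are separate caves, and a gene low in one cave population alone differs from the genes that both caves share. The count table lists Ensembl identifiers without names, and 0 of them could be paired with a symbol. The roles of the members are therefore not described, the lists of liver pathways and of markers of other cell types were not tested, and the liver label was not checked against marker genes. The members are called by number, from 1 for the highest mean CPM over the Tinaja and Surface libraries to 36 for the lowest. CPM are not corrected for transcript length, so this order is one of reads and not of transcript molecules.

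Library totals lay between 22168622 and 29521610 counts, and 18361 to 19332 genes had a read in a library. The TMM factors, by which the totals were multiplied, were 1.21 and 1.33 in Pachon 1 and 2, 1.01 and 0.825 in Tinaja 1 and 2, and 0.822 and 0.905 in Surface 1 and 2. They lower Pachon CPM relative to the other libraries, which bears on how many genes met the rule. With total-count scaling in place of TMM, 23 genes met it, 21 of them among the 36. With 1 Pachon library left to bear the condition, more genes met it, 55 without Pachon 1 and 58 without Pachon 2, in each case with all 36 among them.

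Of the 27420 genes, 9245 had at least 2 CPM in all 4 Tinaja and Surface libraries, and 7953 of these had Tinaja and Surface means within 2-fold. Both Pachon libraries were below all 4 others in 1476 of the 7953. The distance of at least 3 times left 36, or 0.389% of the 9245. The same thresholds found 42 genes higher in Pachon alone, 28 lower in Tinaja alone and 42 higher in Tinaja alone. Whether these numbers differ beyond chance was not tested.

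**Figure D1:**
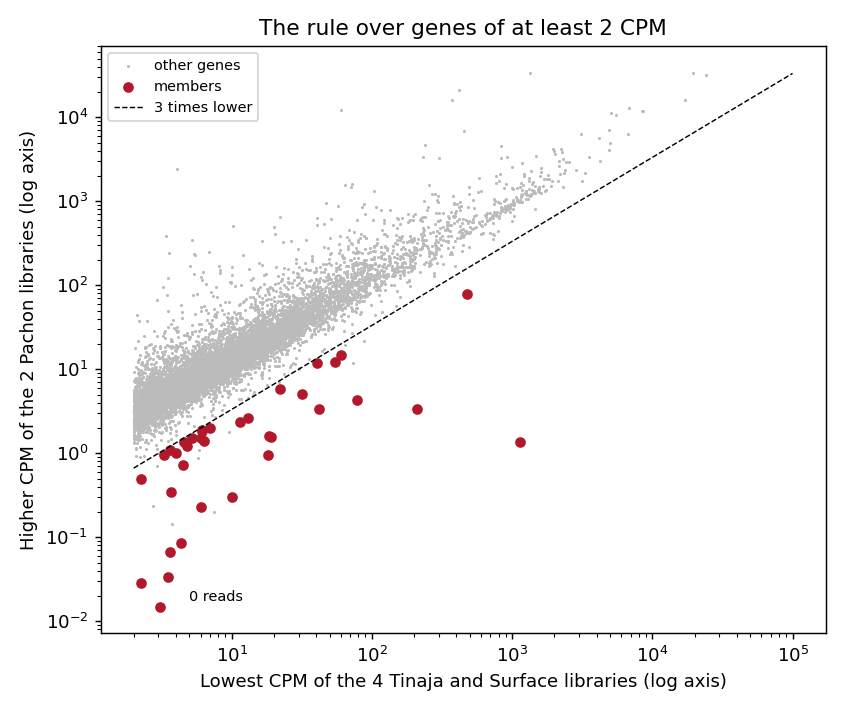
Higher CPM of the 2 Pachon libraries against the lowest CPM of the 4 Tinaja and Surface libraries, both on log axes, for the 9245 genes of at least 2 CPM; red points are the 36 members and the dashed line marks 3 times lower. Grey points below the line are the 15 genes whose Tinaja and Surface means differed by 2-fold or more, and the member with 0 Pachon reads is drawn at the foot.

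The members covered a wide range of abundance outside Pachon. Their mean CPM over the Tinaja and Surface libraries ran from 2.72 for member 36 to 3325 for member 1, with a median of 12.1. The median over all 9245 genes was also 12.1. Only 3 members had a mean of 100 CPM or more, 19 lay between 10 and 100 CPM, and 14 lay below 10 CPM. In Pachon the median over the members of the mean CPM was 1.37, against 12.3 in Tinaja and 14.2 in Surface. These medians follow from the rule and describe the set.

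Most of the reads of the set came from its first 3 members. Summed over all 36, the set took 153.4 and 136.2 CPM in Pachon 1 and 2, 4934 and 2735 CPM in Tinaja 1 and 2, and 6671 and 6719 CPM in Surface 1 and 2. As a share of unscaled counts this was 0.0185% and 0.0182% in Pachon 1 and 2, 0.5% and 0.226% in Tinaja 1 and 2, and 0.548% and 0.608% in Surface 1 and 2. The first 3 members supplied 53.8% and 42.2% of the set's reads in Pachon 1 and 2, 86.3% and 72.4% in Tinaja 1 and 2, and 89.1% and 89.4% in Surface 1 and 2. Members 4 to 36 together stood at 70.8 and 78.8 CPM in Pachon 1 and 2, at 675.7 and 756.0 CPM in Tinaja 1 and 2, and at 724.2 and 709.5 CPM in Surface 1 and 2. The sums of members 4 to 36 overlapped between Tinaja and Surface, and the sums of all 36 were lower in both Tinaja libraries than in both Surface libraries. In bulk tissue, fewer cells that express a gene and less RNA per cell cannot be told apart.

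**Figure D2:**
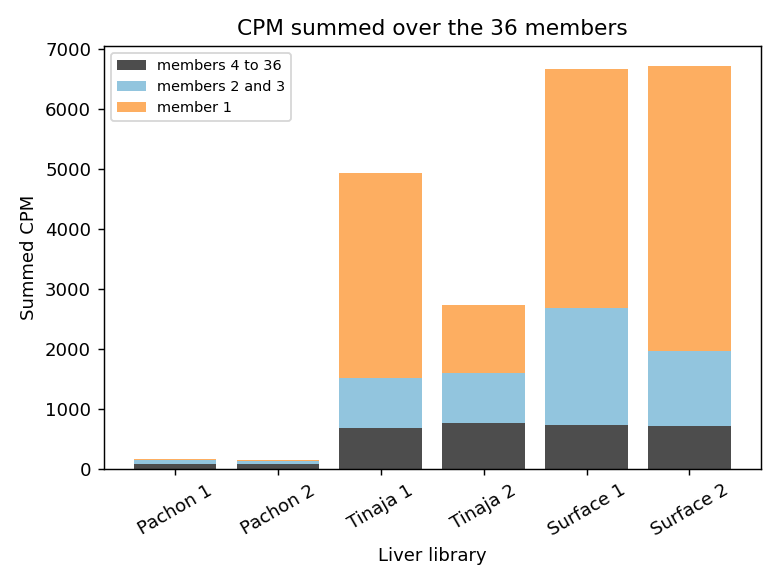
CPM summed over the 36 members in each of the 6 liver libraries, split into member 1, members 2 and 3, and members 4 to 36. The sum of members 4 to 36 lies between 675.7 and 756.0 CPM in the 4 Tinaja and Surface libraries and at 70.8 and 78.8 CPM in Pachon 1 and 2, and member 1 accounts for most of the difference between Tinaja 1 and 2.

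Member 1, ENSAMXG00000042564, had the highest level outside Pachon and the widest gap to it among the members with a Pachon read in both libraries. It had 1.37 and 0.896 CPM in Pachon 1 and 2, from 41 and 31 reads, against 3413 and 1133 CPM in Tinaja 1 and 2, from 86021 and 20713 reads, and 3994 and 4760 CPM in Surface 1 and 2, from 96881 and 106413 reads. The lowest of the other libraries, Tinaja 2, was 827 times the higher Pachon library. Alone this gene made up 69.2% and 41.4% of the set's reads in Tinaja 1 and 2 and 59.9% and 70.8% in Surface 1 and 2, but 0.893% and 0.657% in Pachon 1 and 2. Its Tinaja libraries differed 3.01-fold from each other, and both were below both Surface libraries.

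Member 3 had a narrower gap at a lower level. It stood at 1.94 and 3.35 CPM in Pachon 1 and 2, against 209.2 and 370.4 CPM in Tinaja 1 and 2 and 439.8 and 688.6 CPM in Surface 1 and 2. The lowest other library was 62.4 times the higher Pachon library. Here too both Tinaja libraries were below both Surface libraries, and the Tinaja mean was 0.514 times the Surface mean.

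Member 2 kept the highest level of the set in Pachon. It had 79.2 and 53.2 CPM in Pachon 1 and 2, against 635.7 and 475.4 CPM in Tinaja 1 and 2 and 1514 and 561.3 CPM in Surface 1 and 2. Surface 2 lay between the Tinaja libraries, and Surface 1 stood 2.7-fold above Surface 2. The lowest other library was 6 times the higher Pachon library, so the gene was reduced but plainly read in Pachon, with 2370 and 1841 reads.

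Among members 4 to 10, 3 were lower in Pachon by more than 10 times at their nearest library. Member 4 had 2.61 and 4.33 CPM in Pachon 1 and 2, against 78.3 and 85.4 CPM in Tinaja 1 and 2 and 91.6 and 96.3 CPM in Surface 1 and 2. Its nearest library was 18.1 times the higher Pachon value, and the libraries of each of the other populations differed by less than 1.1-fold. Member 8 was as even, with 1.97 and 3.38 CPM in Pachon 1 and 2, against 49.4 and 46.7 CPM in Tinaja 1 and 2 and 42.2 and 43.0 CPM in Surface 1 and 2, a nearest gap of 12.5 times. Member 10 was less even, with 1.5 and 1.62 CPM in Pachon 1 and 2, 19.05 and 49.2 CPM in Tinaja 1 and 2, and 27.6 and 18.4 CPM in Surface 1 and 2. Tinaja 2 was its highest library and the nearest gap was 11.4 times.

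The other members between ranks 5 and 9 remained well above 1 CPM in Pachon. Member 6 had 14.4 and 14.995 CPM in Pachon 1 and 2, against 85.3 and 60.0 CPM in Tinaja 1 and 2 and 76.8 and 80.9 CPM in Surface 1 and 2. Member 5 had 9.69 and 12.4 CPM in Pachon 1 and 2, against 107.8 and 88.8 CPM in Tinaja 1 and 2 and 72.5 and 54.8 CPM in Surface 1 and 2, so that both Tinaja libraries were the highest. Member 7 ran the other way between Tinaja and Surface, with 9.42 and 11.8 CPM in Pachon 1 and 2, 51.6 and 40.7 CPM in Tinaja 1 and 2, and 73.8 and 78.6 CPM in Surface 1 and 2. Their nearest gaps were 4, 4.43 and 3.45 times for members 6, 5 and 7. Member 9 had 3.91 and 5.11 CPM in Pachon 1 and 2, against 39.04 and 39.06 CPM in Tinaja 1 and 2 and 49.4 and 31.9 CPM in Surface 1 and 2.

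**Figure D3:**
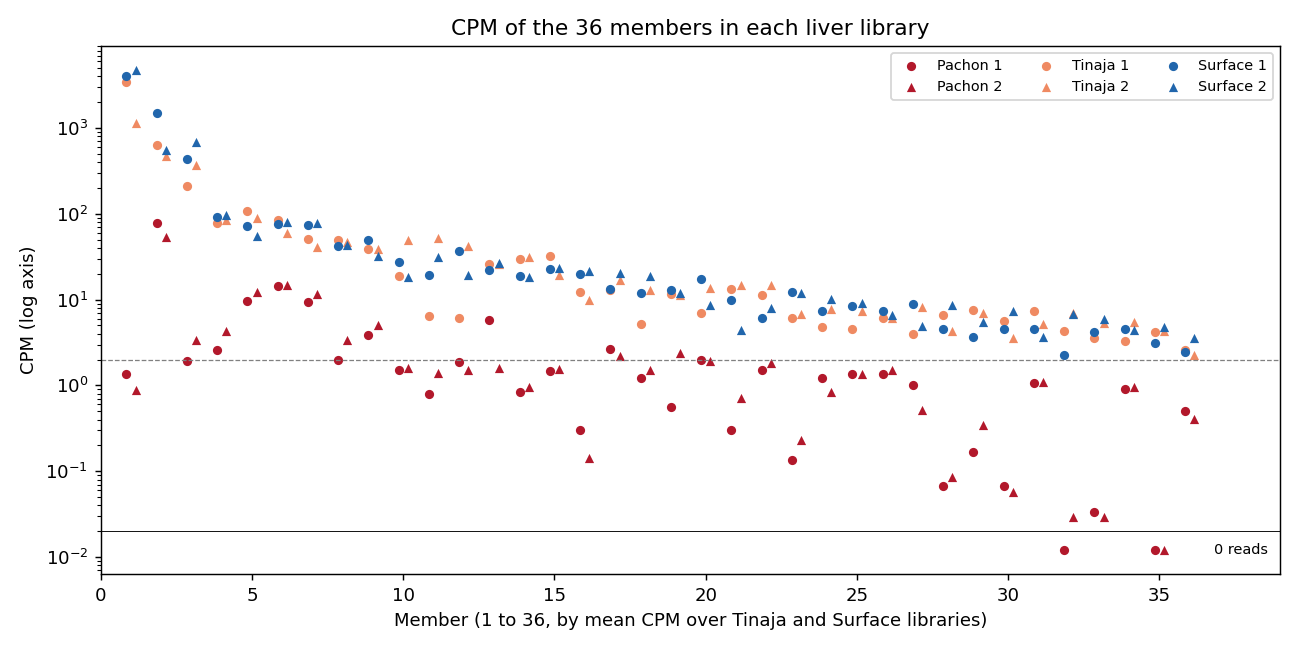
CPM on a log axis of each of the 36 members in each library, in the order of their mean over the Tinaja and Surface libraries; circles are library 1 and triangles library 2, and the dashed line marks 2 CPM. Member 1 has 1.37 and 0.896 CPM in Pachon against 1133 CPM or more in the Tinaja and Surface libraries, members 4 to 10 lie between 1.5 and 14.995 CPM in Pachon, and points below the solid line had 0 reads.

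Some of the scarcer members were close to unread in Pachon. Member 35, ENSAMXG00000036750, had 0 reads in Pachon 1 and 0 in Pachon 2, against 106 and 79 reads in Tinaja 1 and 2 and 75 and 108 reads in Surface 1 and 2. A count of 0 over both Pachon libraries was set to a floor of 3 reads, or 0.0465 CPM. Against that floor the gene was 91.5-fold lower in Pachon than in Tinaja and 84.4-fold lower than in Surface. These values leave out the counting error of the Tinaja and Surface reads and rest on TMM scaling, so they are not strict bounds. The gene was singled out after its values were seen. In CPM it stood at 4.21 and 4.32 in Tinaja 1 and 2 and at 3.09 and 4.83 in Surface 1 and 2, so its level outside Pachon was low. Its libraries differed 1.03-fold in Tinaja and 1.56-fold in Surface.

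Member 32 had 0 and 1 read in Pachon 1 and 2, against 109 and 127 reads in Tinaja 1 and 2 and 55 and 153 reads in Surface 1 and 2. The pooled ratio to Pachon was 350 in Tinaja, with an exact 95% binomial interval of 62.3 to 13900, and 288 in Surface, with 51.1 to 11400. Member 33 had 1 read in each Pachon library, against 89 and 99 reads in Tinaja 1 and 2 and 103 and 133 reads in Surface 1 and 2. Its pooled ratio was 140 in Tinaja (38.1 to 1160) and 163 in Surface (44.7 to 1360). Such intervals and floors cover counting error only.

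Those 3 members were the only ones with at most 3 reads over both Pachon libraries, and 5 members had at most 3 in Pachon 2 alone and 5 in Pachon 1 alone. They were also the only such genes among the 9245 with at least 2 CPM in all Tinaja and Surface libraries, or 0.0324%. A gene so low that meets the other conditions is bound to be a member, so this share is a description.

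Another 5 members had 4 to 19 Pachon reads. Member 30 had 2 reads in each Pachon library, against 143 and 66 reads in Tinaja 1 and 2 and 111 and 166 reads in Surface 1 and 2, which made it 77.5 times higher in Tinaja (29.8 to 287) and 95.9 times higher in Surface (37 to 354). Member 28 had 2 and 3 reads in Pachon 1 and 2, against 165 and 79 reads in Tinaja 1 and 2 and 110 and 194 reads in Surface 1 and 2, with ratios of 72.4 (30.6 to 225) in Tinaja and 84.2 (35.7 to 261) in Surface. These were the last of the 5 members that stayed below 0.1 CPM in both Pachon libraries, the others being 32, 33 and 35.

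Members 16 and 23 followed a like order across the populations. Member 16 had 0.301 and 0.144 CPM in Pachon 1 and 2, against 12.3 and 10.01 CPM in Tinaja 1 and 2 and 20.1 and 21.7 CPM in Surface 1 and 2. Member 23 had 0.134 and 0.231 CPM in Pachon 1 and 2, against 6.07 and 6.84 CPM in Tinaja 1 and 2 and 12.2 and 11.8 CPM in Surface 1 and 2. In both genes the Tinaja libraries lay below the Surface libraries. Member 29, with 5 and 12 Pachon reads, ran the other way, at 0.167 and 0.347 CPM in Pachon 1 and 2, 7.58 and 7.0 CPM in Tinaja 1 and 2, and 3.71 and 5.5 CPM in Surface 1 and 2.

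Member 14 had the most even libraries of all members with a gap above 10 times. It stood at 0.835 and 0.953 CPM in Pachon 1 and 2, against 29.8 and 31.1 CPM in Tinaja 1 and 2 and 18.6 and 18.2 CPM in Surface 1 and 2. Its libraries of 1 population differed by at most 1.14-fold, and the nearest gap was 19 times. Member 15, at 1.47 and 1.56 CPM in Pachon 1 and 2, 31.9 and 19.2 CPM in Tinaja 1 and 2 and 22.8 and 23.2 CPM in Surface 1 and 2, had a nearest gap of 12.3 times.

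Over the whole set, the nearest gap had a median of 5.46 times. It was above 100 times in members 1 and 33, at least 20 times in 9 members, counting member 35 with its 0 reads, and below 5 times in 18, of which 12 lay below 4 times. In Pachon, 19 members kept 1 CPM or more in both libraries, 12 were below 1 CPM in both, and 5 had a library on either side. Member 35 alone had no read in Pachon, and 28 of the 36 had 20 or more Pachon reads, with a median of 88.5 over all 36. Most members were thus read at a reduced level in Pachon, and a smaller part was nearly unread there.

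The members nearest to the thresholds were close to genes outside them. Members 31, 12 and 22 had nearest gaps of 3.3, 3.31 and 3.32 times, and the genes just outside had 2.99, 2.91 and 2.88 times. The lowest Tinaja or Surface value was 2.24 CPM in member 36, 2.27 CPM in member 32 and 3.09 CPM in member 35, and genes otherwise meeting the rule had 1.97, 1.92 and 1.83 CPM. Tinaja and Surface means differed by 1.96-fold in member 21, 1.95-fold in member 3 and 1.93-fold in member 1, against 2.01, 2.12 and 2.16-fold in the nearest genes left out. The gene just outside at 1.92 CPM had 0 reads in both Pachon libraries, like member 35. Without the bound on the means the set would hold 15 more genes, 5 higher in Tinaja and 10 higher in Surface.

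The study's comparison of Pachon with Surface asks which liver transcripts differ between a cave and the river population. By edgeR's quasi-likelihood test with Benjamini-Hochberg adjustment over 15282 genes, 34 of the 36 members were lower in Pachon, against 8.11% of all genes tested. The members were chosen from this contrast, so nothing is read from the difference. Their log2 fold changes ran from -11.92 to -1.93 with a median of -3.85, beside a median of -0.01 over all tested genes. The standard error had a median of 0.37 in the members and 0.29 over all genes.

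In the comparison of both caves with each other, 34 of the 36 were again lower in Pachon than in Tinaja, against 4.75% of all genes tested. The log2 fold changes ran from -10.98 to -2.1 with a median of -3.51, beside 0 over all genes. This contrast was also used to choose the members, and both contrasts share the Pachon libraries, so they are given side by side only. With total-count scaling the median of all genes moved to 0.55 for Pachon against Surface and 0.478 for Pachon against Tinaja. The member medians were -3.25 and -2.97. All 36 members were below 0 in both contrasts, a sign that the rule's gap all but fixes.

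The rule used the contrasts of Pachon with Surface and with Tinaja. Adjusted p and calls of single members, here and in later paragraphs, therefore describe chosen genes and are no separate support. ENSAMXG00000042564 differed by -11.92 ± 0.82 (SE) on the log2 scale between Pachon and Surface (edgeR adjusted p = 0.000457). Between Pachon and Tinaja it differed by -10.98 ± 0.8 (edgeR adjusted p = 0.000643). Member 3 differed by -7.74 ± 0.55 from Surface (edgeR adjusted p = 0.000457) and by -6.79 ± 0.53 from Tinaja (edgeR adjusted p = 0.000798). Member 14, with its even libraries, had the smallest adjusted p against Tinaja, at 0.000147, with a log2 fold change of -5.1 ± 0.21, and -4.36 ± 0.2 against Surface (edgeR adjusted p = 0.000145). For member 2 the values were -3.98 ± 0.55 against Surface (edgeR adjusted p = 0.0047) and -3.09 ± 0.53 against Tinaja (edgeR adjusted p = 0.0155). The call of member 2 against Tinaja was lost without Pachon 1 (adjusted p = 0.0663), Pachon 2 (0.119), Tinaja 1 (0.0607) or Tinaja 2 (0.0709), over a range of 1.04e-08 to 0.119 across its alternatives.

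Members 11 and 12 passed neither test. Member 11 had 0.802 and 1.39 CPM in Pachon 1 and 2, against 6.39 and 52.0 CPM in Tinaja 1 and 2 and 19.4 and 31.4 CPM in Surface 1 and 2. Member 12 had 1.87 and 1.53 CPM in Pachon 1 and 2, against 6.19 and 42.1 CPM in Tinaja 1 and 2 and 37.4 and 19.2 CPM in Surface 1 and 2. Tinaja 2 exceeded Tinaja 1 by 8.13-fold and 6.8-fold in these genes, the widest gaps between libraries of a population among members read in both. The log2 fold change against Surface was -4.53 ± 1.13 in member 11 (edgeR adjusted p = 0.0551) and -4.07 ± 1.03 in member 12 (0.0565), and against Tinaja -4.74 ± 1.14 (0.0694) and -3.84 ± 1.02 (0.0856).

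With either Tinaja library left out, the wide spread between the Tinaja libraries no longer entered the fit. An adjusted p below that of the full fit is therefore no added support for these genes. Over the alternatives the log2 fold change against Tinaja ran from -5.55 to -2.54 in member 11 and from -4.62 to -1.87 in member 12. Against Surface, the edgeR adjusted p was 0.00341 in member 11 without Tinaja 1 and 0.00292 without Tinaja 2, and 0.00533 and 0.00464 in member 12. Against Tinaja it was 0.00658 without Tinaja 1 and 0.0458 without Tinaja 2 in member 11. Across their alternatives the highest values were 0.25 and 0.276 against Surface and 0.291 and 0.361 against Tinaja in members 11 and 12.

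In the spread between libraries of 1 population, which the rule does not bound directly, several members stood out. On the scale of log2(CPM + 0.5), the median difference between libraries was 0.22 in Pachon, 0.44 in Tinaja and 0.45 in Surface over the members, beside 0.21, 0.26 and 0.26 over all tested genes in the same order. More than 2-fold apart were 2 members in Pachon (5.56%), 5 in Tinaja (13.9%) and 3 in Surface (8.33%), against 2.98%, 4.42% and 5.05% of all tested genes. Adding 0.5 CPM narrows differences at low CPM. In plain CPM members 16, 21 and 29 were also beyond 2-fold in Pachon, at 2.08, 2.4 and 2.07-fold. Member 32 had 0 and 1 read there. Whether the members are more variable was not tested, and their low counts in Pachon limit the comparison there. In Tinaja and Surface abundance was not matched, since the tested genes include genes below the 2 CPM asked of members.

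The 2 members that differed most between Pachon libraries on that scale did so in opposite directions. Member 13 had 5.85 and 1.62 CPM in Pachon 1 and 2, against 26.2 and 26.1 CPM in Tinaja 1 and 2 and 22.1 and 26.4 CPM in Surface 1 and 2. Member 19 had 0.568 and 2.37 CPM in Pachon 1 and 2, against 11.7 and 11.4 CPM in Tinaja 1 and 2 and 12.8 and 11.8 CPM in Surface 1 and 2. Both genes were even outside Pachon and 3.61-fold and 4.17-fold apart within it. Member 13 differed by -2.71 ± 0.55 from Surface (edgeR adjusted p = 0.0243), a call lost without Surface 1 (0.0713), Surface 2 (0.0891), Tinaja 1 (0.0669) or Tinaja 2 (0.0708), with no filter on low counts (0.0843) and with only the 2 populations compared (0.0601). Its call against Tinaja (-2.83 ± 0.56, edgeR adjusted p = 0.0334) was lost without the same libraries, at 0.0598, 0.0612, 0.109 and 0.186, with no filter (0.0986) and with only the 2 populations compared (0.0508). Without Pachon 1 the log2 fold change against Surface was -3.92 in member 13 and -2.39 in member 19, and without Pachon 2 it was -2.04 and -4.41. Member 19 differed by -3.06 ± 0.55 from Surface (edgeR adjusted p = 0.0152), a call lost without Surface 1 (0.0543), and by -2.98 ± 0.55 from Tinaja (0.0263), a call lost without Tinaja 1 (0.0901) or Tinaja 2 (0.142) and with no filter on low counts (0.0635).

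**Figure D4:**
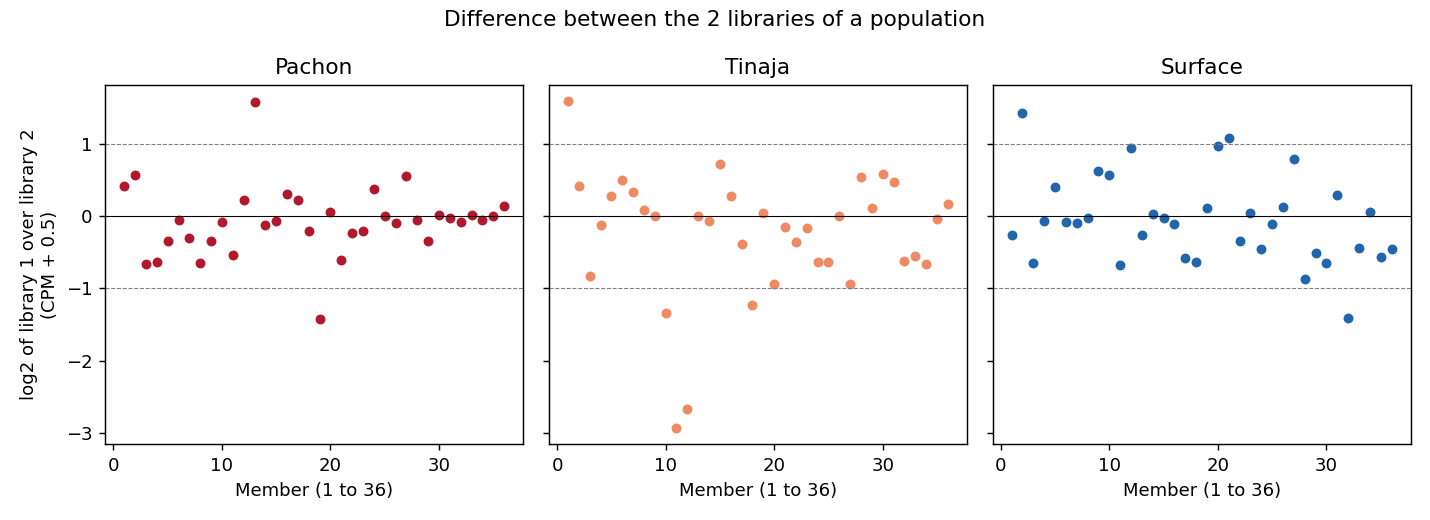
Log2 of library 1 over library 2 (CPM + 0.5) for each of the 36 members in Pachon, Tinaja and Surface; dashed lines mark 2-fold. Members 13 and 19 lie beyond 2-fold in Pachon on opposite sides, members 11 and 12 are the lowest points in Tinaja, and member 1 is the highest point in Tinaja.

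On the log2(CPM + 0.5) scale, members 10 and 18 differed by more than 2-fold between Tinaja libraries, besides members 1, 11 and 12. In plain CPM member 27 did too, at 2.03-fold. Member 18 had 1.24 and 1.5 CPM in Pachon 1 and 2, against 5.2 and 12.9 CPM in Tinaja 1 and 2 and 11.995 and 18.9 CPM in Surface 1 and 2. Member 10 was called against Surface (edgeR adjusted p = 0.00603) and Tinaja (0.00673), but not without Pachon 1 (0.0525 and 0.0599) or Pachon 2 (0.0544 and 0.0659). Member 18 was called against Surface (edgeR adjusted p = 0.0061), but not without Pachon 1 (0.0506), and against Tinaja (0.0213), but not without Pachon 1, Pachon 2 or Tinaja 2, with a highest value of 0.123. In Surface the members beyond 2-fold on the log2(CPM + 0.5) scale were 2, 21 and 32, and in plain CPM member 20 was too, at 2.02-fold. Member 21 had 0.301 and 0.722 CPM in Pachon 1 and 2, 13.4 and 14.99 CPM in Tinaja 1 and 2, and 10.02 and 4.47 CPM in Surface 1 and 2. Tinaja 2 was the higher Tinaja library in members 10, 11, 12, 18 and 27, and of these wide members it was the lower only in member 1.

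Tinaja and Surface means differed by less than 2-fold in these genes, which the rule requires. Tinaja had the higher mean in 13 members and the lower in 23, and the fitted log2 fold changes of Tinaja over Surface ran from -0.95 to 0.98 with a median of -0.17, beside 0.00 over all tested genes. With total-count scaling 16 members lay above 0 and 20 below. Libraries of both populations overlapped in 20 members. Tinaja was above Surface in both libraries in 7 members and below in 9, or 44.4% together, against 60.3% of all tested genes. Since the rule bounds the ratio of means, nothing is read from the smaller share.

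By edgeR's test 4 of the 36 members differed between Tinaja and Surface, against 15.8% of all genes tested. The rule bounds the ratio of these means, so nothing is read from the count. Member 14 was higher in Tinaja by 0.73 ± 0.17 on the log2 scale (edgeR adjusted p = 0.0273), and member 22 by 0.91 ± 0.24 (edgeR adjusted p = 0.0427). Member 16 was lower in Tinaja, at -0.9 ± 0.23 (edgeR adjusted p = 0.0406), and so was member 23, at -0.89 ± 0.22 (edgeR adjusted p = 0.0356). None of the 4 was called without Tinaja 1, Tinaja 2, Surface 1 or Surface 2, 1 was called with total-count scaling or without Pachon 1, and 2 were without Pachon 2. The adjusted p reached 0.107 in member 14, 0.192 in member 22, 0.182 in member 16 and 0.136 in member 23 over their alternatives.

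**Figure D5:**
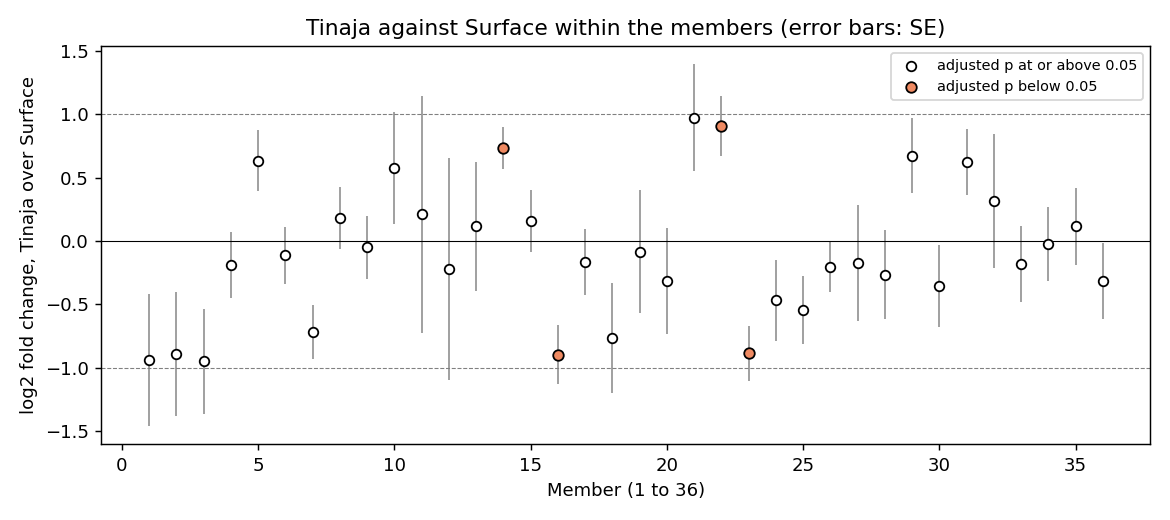
Log2 fold change of Tinaja over Surface in the 36 members, with SE as error bars; filled points passed edgeR's test and dashed lines mark 2-fold. Members 14 and 22 are the filled points above 0 and members 16 and 23 those below it, and members 1 to 3 lie near the lower line without passing the test.

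Members 1, 2 and 3, which carried most of the set's reads, had a Tinaja mean of 0.514 to 0.536 times the Surface mean, without passing the test. Their log2 fold changes were -0.94 ± 0.52 (edgeR adjusted p = 0.261), -0.89 ± 0.49 (0.256) and -0.95 ± 0.41 (0.16). The highest ratio of Tinaja to Surface was in member 21, at 0.98 ± 0.42 on the log2 scale (edgeR adjusted p = 0.165). Member 22, next in that order, had 1.5 and 1.85 CPM in Pachon 1 and 2, against 11.4 and 14.8 CPM in Tinaja 1 and 2 and 6.14 and 7.92 CPM in Surface 1 and 2. Means within 1.5-fold of each other were found in 23 members, with Tinaja higher by more in 6 and Surface higher by more in 7.

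The remaining members had moderate gaps. Members 17, 20, 24, 25, 26, 27, 31, 34 and 36 had between 2.24 and 20.4 CPM in each Tinaja and Surface library and between 0.404 and 2.64 CPM in Pachon. Their nearest gaps ran from 3.3 to 4.91 times. Member 17 was typical of the more abundant of them, with 2.64 and 2.2 CPM in Pachon 1 and 2, against 13.0 and 17.1 CPM in Tinaja 1 and 2 and 13.5 and 20.4 CPM in Surface 1 and 2. Member 26 was among the most even, with 1.37 and 1.5 CPM in Pachon 1 and 2, against 6.11 and 6.07 CPM in Tinaja 1 and 2 and 7.38 and 6.71 CPM in Surface 1 and 2. All 9 passed edgeR's test against both Surface and Tinaja, with log2 fold changes of -3.19 to -1.93 against Surface and -3.01 to -2.1 against Tinaja. Of all tested genes, 8.11% were called lower in Pachon than in Surface and 4.75% than in Tinaja. The rule used both contrasts, so these calls describe the members and are no separate support. Of the 9, members 20 and 27 lost the call against Surface without a Pachon library, and members 20, 24, 25, 27, 34 and 36 lost the call against Tinaja without a Pachon or Tinaja library, at adjusted p of at most 0.155.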

How the data were processed

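The authors deposited whole-number read counts per Ensembl gene for 6 liver libraries, with no normalisation visible in the values. Per the submitters' processing notes, bcl2fastq 2.20 and STAR were used. The deposited counts are labelled astMex2 for the build and ens96 for the Ensembl release. Whether reads of the 3 populations align equally well to this reference was not tested. Counter, strand setting and the handling of reads shared by gene copies: not given in the sources used here. Values of near-identical, overlapping or antisense genes are therefore uncertain. CPM came from edgeR 4.0.16 (R 4.3.3) after TMM on all genes. The filter by expression (count minimum 10) kept 15282 genes, all 36 members among them. A robust quasi-likelihood fit over all 6 libraries with a term per population (3 residual degrees of freedom) gave two-sided tests adjusted by Benjamini-Hochberg over all genes kept. A gene is called below an adjusted p of 0.05. SE was back-calculated from the F statistic. Fits were also run on simulated counts that gave every gene the same spread, unlike these libraries, so nothing about the members is read from them. The libraries of each population were not copies of each other (chi-square per degree of freedom from 167 to 224 within populations). The members, lists and tests were chosen with earlier results of these data known. Named members were the most abundant, those with the widest gaps, those most different between Tinaja and Surface or between libraries, and those at the thresholds. At most 2 identifiers are printed, since no symbols were paired. DESeq2 1.42.0, other scalings, no filter, the replicate block, fits of 2 populations and leaving out each library were alternatives.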

Additional observations from a re-analysis of the deposited data

Results flagged for a closer look

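Pachon differed from Tinaja in 34 members by edgeR's test, beside 4.75% of all tested genes called lower in Pachon. It is also the test of whether the Pachon difference from Surface is unequal to the Tinaja difference from Surface. Between Tinaja and Surface 4 members were called, beside 15.8% of all tested genes. The rule chose the members by both contrasts, so both counts describe the set and are no separate support. In ENSAMXG00000042564 the difference between the caves was -10.98 on the log2 scale (edgeR adjusted p = 0.000643), with 1.37 and 0.896 CPM in Pachon 1 and 2 against 3413 and 1133 CPM in Tinaja 1 and 2.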

How the results depend on the processing

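All 36 members stayed below 0 against Surface and Tinaja with TMM, RLE and total-count scaling. The rule's gap of at least 3 times all but fixes this sign, so it is no support. RLE gave 37 members, including all 36. The number of genes meeting the rule was 23 with total-count scaling (12 of the 36 fell short of the fold there, 2 of the minimum and 1 of the bound on means), 79 with a fold of 2, 18 with a fold of 5, 16 with a minimum of 10 CPM and 23 with means within 1.5-fold. It ran from 41 to 58 when 1 library was left out, since each condition then bears on fewer values. Members called lower in Pachon ran from 31 to 35 against Surface and from 25 to 33 against Tinaja with 1 library left out, where the lone library of a population is assumed to vary like the others. DESeq2 called 36 in each. The replicate block gave 35 in each. Total-count scaling gave 34 in each, beside 4.39% of all tested genes called lower in Pachon than in Surface and 3.08% than in Tinaja. Between Tinaja and Surface it called 14.2% of all tested genes. The rule used or bounded every contrast, so the counts of members called describe the set. For DESeq2, the replicate block, fits of 2 populations and fits without a library, the share of all genes called is not given. Nothing is read from the counts under those settings. Members called between Tinaja and Surface were 1 with total-count scaling, 1 with the replicate block, 2 with only the 2 populations compared, and 0 to 2 with 1 library left out; DESeq2 called 5. Members with at most 3 Pachon reads were 5 with either Pachon library left out, 1 at 0 reads and 5 at up to 10 reads. The differences between library 1 and library 2 over the tested genes correlated at -0.104 between Pachon and Tinaja. They correlated at 0.0239 between Pachon and Surface and between Tinaja and Surface. Whether libraries of the same number were handled together cannot be told from a single difference per population. Depth limits the fold of members with few Pachon reads, where 1 read is worth 0.0334 and 0.0289 CPM in Pachon 1 and 2.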
